A study of Homo sapiens with 60 samples.

Results

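The genes described here are 10 members of the NF-κB system, chosen by name and looked up by Ensembl identifier among the 60675 identifiers of the deposited table. They are the subunit genes NFKB1, NFKB2, REL, RELA and RELB, the inhibitor genes NFKBIA, NFKBIE and TNFAIP3, and the target genes BIRC3 and ICAM1. All 10 were found, and all 10 passed the expression filter that left 17792 genes. They were measured by RNA sequencing in SW1783, a human astrocytoma cell line bought from a cell bank and kept in L-15 medium with fetal bovine serum, 24 h after treatment. The 60 libraries form 20 groups of 3. Water extracts of 6 medicinal herbs were each given at 3 doses: Schisandrae Fructus, Aucklandiae Radix, Liriopis seu Ophiopogonis Tuber, Longan Arillus and Zizyphi Semen at 500, 100 and 20 µg/mL, and Polygalae Radix at 250, 50 and 10 µg/mL. These are called high, medium and low below, and a herb by the first word of its name. Wortmannin at 10 µM, an inhibitor of phosphatidylinositol 3-kinases, was the positive control. Vehicle was DMSO, at 0.1% by the sample labels and at 2% by the series description, and no DMSO content is given for the treated groups.

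NF-κB is a family of dimeric transcription factors held in the cytoplasm by inhibitors of the IκB type. In the canonical arm, receptors for cytokines or microbial products activate a kinase complex that destroys the inhibitor IκBα and frees dimers of p65 and p50. In the non-canonical arm, the kinase NIK, encoded by MAP3K14, drives the processing of p100 to p52, which pairs with RELB. Several of the genes induced by NF-κB encode its own subunits and inhibitors, so the system feeds back on itself, and in astrocytes it is known for controlling adhesion molecules and inflammatory mediators. An mRNA level does not show where the proteins are or whether they are active.

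Sequencing depth, as the sum of expected counts, had a median of 25.71 M (lowest 9.34 M, in Liriopis low replicate 3, and highest 35.35 M). Of 10 astrocyte and glioma markers, VIM, CD44, CHI3L1, SLC1A3 and NES had a median of at least 1 CPM (counts per M of the scaled library total), whereas GFAP and S100B had medians of 0.128 and 0.0761 CPM, and AQP4, ALDH1L1 and SOX2 had medians of 0. GFAP, S100B, AQP4, ALDH1L1 and SOX2 were thus at or near 0 in these cells, whereas SLC1A3 of the same list had a median of 27.4 CPM. The mean Pearson correlation of a library with its own group, across genes, was at least 0.984 outside Liriopis high, whose libraries had 0.945, 0.967 and 0.968 and whose replicate 1 stands apart. All groups share a single estimate of spread, so leaving that library out also changed calls in other groups: 19.3% of genes were then called for Aucklandiae high against low, where 10.6% were called with it. In the comparisons described, member calls that changed without it are given with their values. The first part of the library name puts Vehicle, Wortmannin, Liriopis with Schisandrae, Longan with Zizyphi, and Polygalae with Aucklandiae in different sets. Set and treatment therefore cannot be told apart in a comparison with Vehicle, while doses of a herb share a set. No label says that replicates came from separate cultures, so the p-values reflect library-to-library spread alone, which may be technical.

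Before the values, the windows of DNA around the starts of a few members show where κB-like letters stand. The RefSeq promoter table (GRCh38.p14) holds 300-base windows, from 250 bases before a start to 50 after, for 8 members. It holds none for RELB and NFKBIE. The 8 members have 12 windows. The letters GGGNNNNNCC, searched on both strands, were in all 12 windows and in 58.7% of the table's 35116 windows of this length. The narrower GGGANTTTCC, which is contained in the first motif, was in windows of 5 members (NFKB1, NFKB2, REL, NFKBIA and TNFAIP3) and in 0.558% of all windows. The windows of ICAM1 and BIRC3, the target genes among the members, and the windows of NFKB2 and NFKBIA that hold the narrower motif, are given with their coordinates. Capitals mark every match to GGGNNNNNCC on either strand, and each sequence reads 5′ to 3′ on the strand of its gene.
ICAM1 (chr19:10270870-10271169, plus strand): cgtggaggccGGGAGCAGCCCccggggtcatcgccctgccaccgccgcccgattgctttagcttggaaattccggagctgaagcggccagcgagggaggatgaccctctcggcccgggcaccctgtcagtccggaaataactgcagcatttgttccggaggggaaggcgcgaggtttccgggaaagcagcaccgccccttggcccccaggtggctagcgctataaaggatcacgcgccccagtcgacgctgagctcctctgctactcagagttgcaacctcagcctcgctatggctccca
BIRC3 (chr11:102317234-102317533, plus strand): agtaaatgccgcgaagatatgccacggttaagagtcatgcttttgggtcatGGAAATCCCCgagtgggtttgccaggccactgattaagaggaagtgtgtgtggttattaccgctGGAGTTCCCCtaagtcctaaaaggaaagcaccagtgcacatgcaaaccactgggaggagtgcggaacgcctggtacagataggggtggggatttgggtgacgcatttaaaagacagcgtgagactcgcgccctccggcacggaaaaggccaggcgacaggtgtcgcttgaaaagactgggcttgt
NFKB2 (chr10:102395455-102395754, plus strand): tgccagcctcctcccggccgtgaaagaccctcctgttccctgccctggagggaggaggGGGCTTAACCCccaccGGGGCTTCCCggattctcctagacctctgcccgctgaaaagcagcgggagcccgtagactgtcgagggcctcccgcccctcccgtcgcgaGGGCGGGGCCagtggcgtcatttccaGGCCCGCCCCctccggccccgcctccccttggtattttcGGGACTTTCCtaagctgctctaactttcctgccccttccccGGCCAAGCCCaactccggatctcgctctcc
NFKBIA (chr14:35404700-35404999, minus strand): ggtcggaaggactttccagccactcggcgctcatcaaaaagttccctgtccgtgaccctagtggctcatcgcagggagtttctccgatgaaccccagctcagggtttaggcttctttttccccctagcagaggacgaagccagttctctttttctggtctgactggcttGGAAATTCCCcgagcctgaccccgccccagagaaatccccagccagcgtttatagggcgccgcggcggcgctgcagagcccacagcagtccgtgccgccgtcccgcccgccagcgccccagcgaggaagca
The narrower motif starts at position -21 from the start in the NFKB2 window, on the strand of the gene, and at -81 in the NFKBIA window, on the opposite strand. The ICAM1 window has overlapping matches at -240 on the strand of the gene and at -239 on the opposite strand. The BIRC3 matches, at -199 and -135, are both on the opposite strand. A match describes letters and is no evidence of binding. Other κB-like letters, such as those that differ from GGGNNNNNCC at 1 position, were not searched. Lower case therefore does not show that a window lacks them.

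In Vehicle libraries the members spanned a wide range of levels per length of exon. RELA, which encodes the p65 subunit, had 15.8 ± 0.844 CPM per kb, NFKBIA, which encodes IκBα, had 13.0 ± 0.285, and ICAM1, an adhesion molecule that binds leukocyte integrins, had 12.0 ± 0.195 (SD, n = 3 each). RELB followed at 5.30 ± 0.416 CPM per kb, NFKB2 at 4.95 ± 0.238 and NFKBIE at 4.43 ± 0.121. TNFAIP3 stood at 3.03 ± 0.0725 CPM per kb, NFKB1 at 3.00 ± 0.146 and REL at 1.24 ± 0.162. BIRC3 was lowest of the 10 at 0.829 ± 0.0710 CPM per kb. RELB and NFKB2, and TNFAIP3 and NFKB1, differed by less than the spread of their libraries. Over all 60 libraries ICAM1 had the widest range of the 10, 26.2 to 133 CPM, and NFKB1 the narrowest, 13.9 to 20.9 CPM, with the low ends of both in Liriopis high replicate 1.

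**Figure D1:**
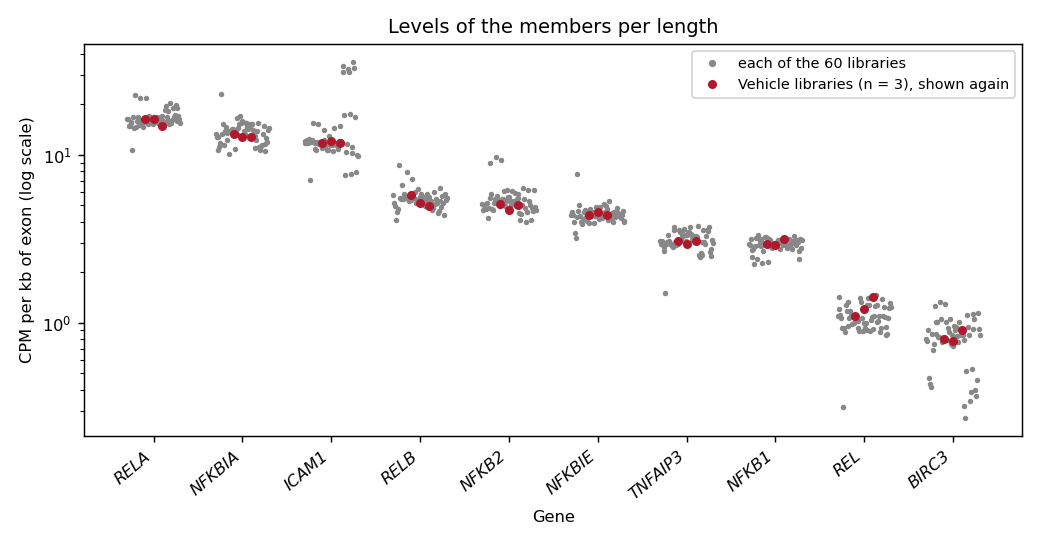
Levels of the 10 members in CPM per kb of exon on a log axis, ordered from left to right by their median. Grey points are the 60 libraries and red points the 3 Vehicle libraries again; ICAM1 and BIRC3 show libraries that leave the main cloud, and RELA, NFKBIA and ICAM1 lie above the other members.

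The members were compared first between the high and the low dose of each herb. With Schisandrae 5 members rose and 2 fell, where 49.7% of all genes tested were called (25.0% rose and 24.8% fell). With Polygalae 4 rose and 2 fell, where 36.1% of all genes were called (17.9% rose and 18.3% fell). With Aucklandiae 2 rose and 2 fell (background 10.6%), with Liriopis 1 rose and 1 fell (16.1%), with Zizyphi 1 rose (0.674%), and with Longan none was called (0.247%). A call is an adjusted p under 0.05 in edgeR, adjusted over all genes tested. For Longan the count of members at an unadjusted p under 0.05 was 1, NFKB2, and DESeq2 also called 0. When Liriopis high replicate 1 was left out of the common fit, edgeR called 9 members with Schisandrae (background 57.6%), 6 with Polygalae (45.7%), 6 with Aucklandiae (19.3%) and 2 with Zizyphi (2.86%). It then called 0 with Longan (2 at an unadjusted p under 0.05, background 1.82%) and 0 with Liriopis (0 unadjusted), where 0 of 18085 genes were called. The median log2 fold change of the 10 members was 0.30 with Schisandrae, 0.09 with Polygalae and 0.15 with Aucklandiae, against 0.00, 0.01 and 0.00 over all genes tested. With Schisandrae, Polygalae and Aucklandiae the direction differed between genes that share a role. NFKB1 and NFKB2 moved in opposite directions with Schisandrae, and BIRC3 and ICAM1 did so with Polygalae and with Aucklandiae. In these bulk samples fewer cells of a type and less RNA per cell cannot be told apart.

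**Figure D2:**
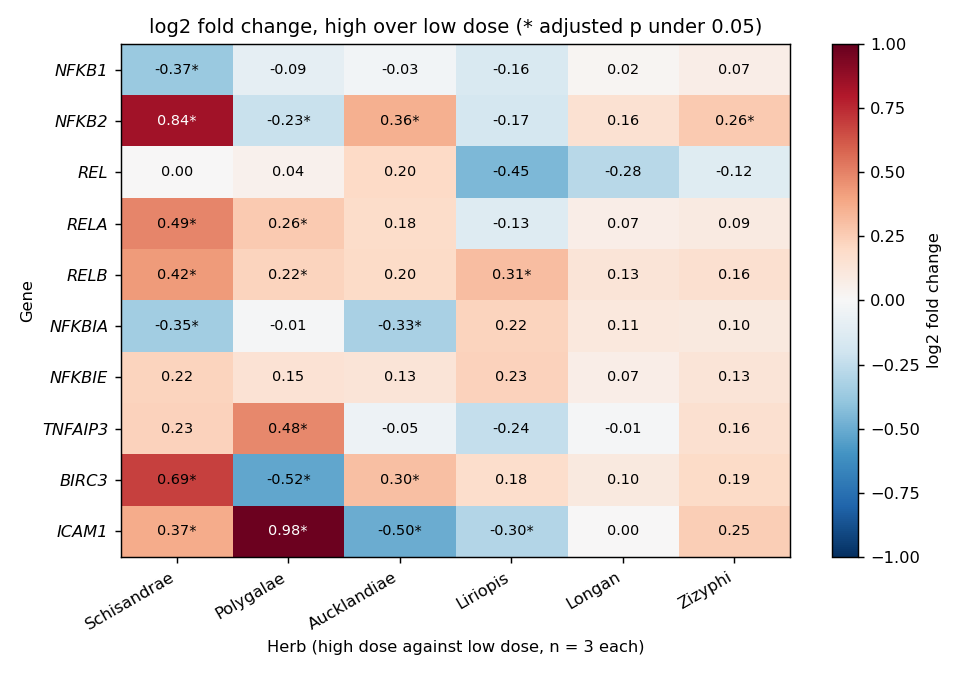
log2 fold change of each member, high over low dose, for the 6 herbs (3 libraries a group); an asterisk marks an adjusted p under 0.05. ICAM1 and BIRC3 change colour between the first 3 columns, REL and NFKBIE carry no asterisk, and the Longan column has none.

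Among the subunits, NFKB2, which encodes p100 and its product p52, had the largest rise with Schisandrae. Its libraries had 39.9, 43.6 and 41.8 CPM at the high dose of Schisandrae, against 21.3, 24.3 and 24.4 CPM at the low dose. The groups do not overlap, and the log2 fold change was 0.84 (SE 0.06, adjusted p = 1.1e-15). NFKB2 lies on chromosome 10, 102394110 to 102402529, plus strand (ENSG00000077150). With Aucklandiae its libraries had 28.4, 27.9 and 27.8 CPM at the high dose, against 21.8, 22.7 and 21.2 CPM at the low dose (log2 0.36, SE 0.06, adjusted p = 4.8e-05). With Zizyphi the values were 27.8, 27.3 and 26.3 CPM at the high dose and 24.6, 22.9 and 20.3 CPM at the low dose (log2 0.26, SE 0.06, adjusted p = 0.024). This is the only member called with Zizyphi. The Zizyphi call was lost without Zizyphi high replicate 1 or 2 or low replicate 2 or 3, each of which left 0 members called, with values of 0.19 to 0.27 and adjusted p up to 0.33. It was also lost with unscaled totals (adjusted p = 0.093), with the compared groups fitted alone (0.11) and without the filter (0.39). Without Liriopis high replicate 1 in the common fit, 2 members were called with Zizyphi (background 2.86%), the second being ICAM1 (log2 0.25, adjusted p = 0.0014). With Polygalae NFKB2 went the other way, with 18.3, 17.8 and 18.4 CPM at the high dose against 22.5, 20.6 and 20.7 CPM at the low dose. This fall (log2 -0.23, SE 0.06, adjusted p = 0.0045) did not pass with library totals unscaled, where it was -0.12 (adjusted p = 0.19). Unscaled totals moved the median of all genes in this comparison from 0.01 to 0.11 (log2) and the calls from 3181 higher and 3248 lower to 4667 higher and 2338 lower.

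RELA (ENSG00000173039, chromosome 11, 65653596 to 65663094, minus strand) overlaps the non-coding gene RELA-DT on the opposite strand, whose level was not analysed here. RELA rose with Schisandrae, to 125, 119 and 120 CPM at the high dose, against 86.8, 88.5 and 83.9 CPM at the low dose. The log2 fold change was 0.49 (SE 0.08, adjusted p = 1.8e-06), with no overlap between the groups. With Polygalae it had 101, 111 and 108 CPM at the high dose, against 91.6, 88.3 and 87.3 CPM at the low dose (log2 0.26, SE 0.08, adjusted p = 0.0081). With Aucklandiae the high dose had 99.8, 104 and 93.4 CPM, against 83.7, 93.9 and 85.1 CPM at the low dose. These Aucklandiae groups overlap by a single library, and the difference did not pass (log2 0.18, adjusted p = 0.17). It passed without Liriopis high replicate 1 in the common fit (0.18, adjusted p = 0.020), while with only the compared groups its adjusted p was 0.050.

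RELB, the partner of p52 (ENSG00000104856, chromosome 19, 45001430 to 45038198, plus strand), had 20.2, 23.9 and 21.9 CPM at the high dose of Schisandrae, against 16.5, 16.04 and 16.7 CPM at the low dose. It rose there by 0.42 on the log2 scale (SE 0.09, adjusted p = 6.3e-05). With Polygalae it had 16.2, 15.6 and 17.3 CPM at the high dose, against 14.6, 14.1 and 13.4 CPM at the low dose. That rise was close to the threshold (log2 0.22, SE 0.09, adjusted p = 0.045). It did not pass without Polygalae high replicate 1 or 3 or low replicate 1, 2 or 3 (0.18 to 0.25, adjusted p 0.050 to 0.18), with RLE size factors (0.054), with DESeq2 (0.060) or without the filter (0.16). With Aucklandiae RELB had 18.3, 19.2 and 17.7 CPM at the high dose, against 16.6, 14.8 and 16.8 CPM at the low dose. These groups do not overlap. The difference of 0.20 did not pass (adjusted p = 0.17), and it passed without Liriopis high replicate 1 (0.19, adjusted p = 0.023). In the Polygalae set every RELB library at the low dose lay below the Vehicle libraries, which had 17.5, 15.7 and 15.1 CPM.

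NFKB1, which encodes p105 and its product p50 (ENSG00000109320, chromosome 4, 102501329 to 102617302, plus strand), fell with Schisandrae. Its libraries had 15.0, 14.2 and 14.4 CPM at the high dose, against 18.2, 18.6 and 19.6 CPM at the low dose (log2 -0.37, SE 0.09, adjusted p = 0.00043). Schisandrae high had the lowest group mean of the 20 for this gene, 14.5 ± 0.452 CPM, and Wortmannin the next, 16.5 ± 0.901 CPM. In the other herbs the NFKB1 difference lay between -0.16 and 0.07 and was not called.

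REL, the gene of c-Rel (ENSG00000162924, chromosome 2, 60881521 to 60931610, plus strand), was called by edgeR in none of the 6 high against low comparisons, where 0 reached an unadjusted p under 0.05, and its SE of 0.21 to 0.24 was the largest among the members. With Schisandrae it had 16.7, 14.7 and 13.7 CPM at the high dose, against 17.4, 14.3 and 13.5 CPM at the low dose, a difference of 0.00 with a 95% interval of -0.42 to 0.42. With Polygalae the high dose had 19.3, 12.3 and 11.2 CPM, against 13.3, 14.5 and 14.1 CPM at the low dose (interval -0.39 to 0.48). Differences of up to about these bounds could not be detected at this spread. A non-coding gene on the same strand, ENSG00000267520, overlaps REL and had 1.60 to 7.43 CPM of unscaled totals, so reads shared by the pair may have been split between them in counting.

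Among the inhibitors, NFKBIA, whose protein IκBα retains NF-κB dimers in the cytoplasm, fell with Schisandrae and with Aucklandiae. It lies on chromosome 14, 35401511 to 35404749, minus strand (ENSG00000100906). With Schisandrae it had 27.3, 24.1 and 25.8 CPM at the high dose, against 34.6, 32.6 and 31.4 CPM at the low dose (log2 -0.35, SE 0.10, adjusted p = 0.0030). With Aucklandiae it had 29.2, 27.3 and 28.3 CPM at the high dose, against 36.5, 35.3 and 34.5 CPM at the low dose (log2 -0.33, SE 0.10, adjusted p = 0.024). The groups do not overlap in either herb. The Aucklandiae call was lost without Aucklandiae low replicate 1 or 2 or high replicate 2 or 3 (-0.33 to -0.30, adjusted p 0.060 to 0.097). With Polygalae the high dose had 32.5, 26.5 and 27.5 CPM, against 30.6, 26.8 and 30.03 CPM at the low dose, and the groups overlap. The window of NFKBIA printed above carries the narrower κB-like motif, and so does that of NFKB2, which rose in the herbs where NFKBIA fell.

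TNFAIP3 encodes A20, a ubiquitin-editing enzyme that shuts down signalling upstream of the kinase complex (ENSG00000118503, chromosome 6, 137867188 to 137883312, plus strand). It rose with Polygalae, to 19.2, 17.9 and 18.8 CPM at the high dose, against 12.5, 14.9 and 12.6 CPM at the low dose (log2 0.48, SE 0.12, adjusted p = 0.00090). With Schisandrae it had 17.0, 18.8 and 18.0 CPM at the high dose, against 14.9, 15.2 and 15.8 CPM at the low dose. These groups do not overlap, and the difference did not pass (log2 0.23, adjusted p = 0.11). It passed without Liriopis high replicate 1 in the common fit (0.23, adjusted p = 0.017). NFKBIE, which encodes IκBε (ENSG00000146232, chromosome 6, 44258166 to 44265788, minus strand), was called in none of the 6 high against low comparisons. It had 13.1, 12.2 and 12.2 CPM at the high dose of Schisandrae, against 10.3, 10.6 and 11.3 CPM at the low dose (log2 0.22, 95% interval -0.03 to 0.47, adjusted p = 0.14, and 0.012 without that Liriopis library). WAKMAR2, an antisense gene that overlaps TNFAIP3, reached at most 0.657 CPM, and since no source used here states whether counting used strand, reads of such pairs cannot be told apart.

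Of the targets, ICAM1 had the largest change of any member, and its direction depended on the herb. It lies on chromosome 19, 10270835 to 10286615, plus strand (ENSG00000090339). With Polygalae its libraries had 126, 120 and 133 CPM at the high dose, against 64.1, 65.3 and 62.7 CPM at the low dose (log2 0.98, SE 0.08, adjusted p = 2.6e-14), a 1.97-fold difference. With Schisandrae it had 57.6, 56.5 and 52.5 CPM at the high dose, against 43.6, 44.2 and 41.1 CPM at the low dose (log2 0.37, SE 0.08, adjusted p = 0.00014). With Aucklandiae it fell to 28.1, 28.6 and 29.2 CPM at the high dose, against 43.3, 41.3 and 36.3 CPM at the low dose (log2 -0.50, SE 0.08, adjusted p = 1.6e-05). The groups do not overlap in any of these herbs. Over the 20 groups Polygalae high (126 ± 6.28 CPM) and Polygalae medium (118 ± 3.90 CPM) led with overlapping libraries, followed by Polygalae low (64.1 ± 1.33 CPM). Schisandrae high (55.6 ± 2.71 CPM) and Zizyphi high (52.0 ± 3.71 CPM) came next and overlap, and Aucklandiae high (28.6 ± 0.559 CPM) was last. The antisense genes LIMASI and ICAM4-AS1 overlap ICAM1 and reached at most 0.142 and 1.10 CPM of unscaled totals, both highest in Polygalae high replicate 2.

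BIRC3, which encodes the inhibitor of apoptosis cIAP2, a ubiquitin ligase of TNF receptor signalling, moved against ICAM1 in 2 of these herbs. It lies on chromosome 11, 102317450 to 102339403, plus strand (ENSG00000023445). With Schisandrae it had 9.45, 10.0 and 9.74 CPM at the high dose, against 6.41, 5.81 and 5.96 CPM at the low dose (log2 0.69, SE 0.10, adjusted p = 7.3e-08). With Polygalae it fell to 2.40, 2.56 and 2.98 CPM at the high dose, against 3.90, 3.96 and 3.43 CPM at the low dose (log2 -0.52, SE 0.12, adjusted p = 0.00035). With Aucklandiae it had 8.31, 8.49 and 8.62 CPM at the high dose, against 6.39, 7.94 and 6.38 CPM at the low dose (log2 0.30, SE 0.10, adjusted p = 0.035). The groups do not overlap in any of the 3 herbs. The Aucklandiae call for BIRC3 was lost without any single library of the comparison except low replicate 2 (0.24 to 0.31, adjusted p 0.065 to 0.21). It was also lost with unscaled totals (adjusted p = 0.058), with the compared groups fitted alone (0.053) and without the filter (0.18). Together with NFKBIA this left 2 members called with Aucklandiae in the lowest case, without low replicate 1 or high replicate 2 or 3.

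**Figure D3:**
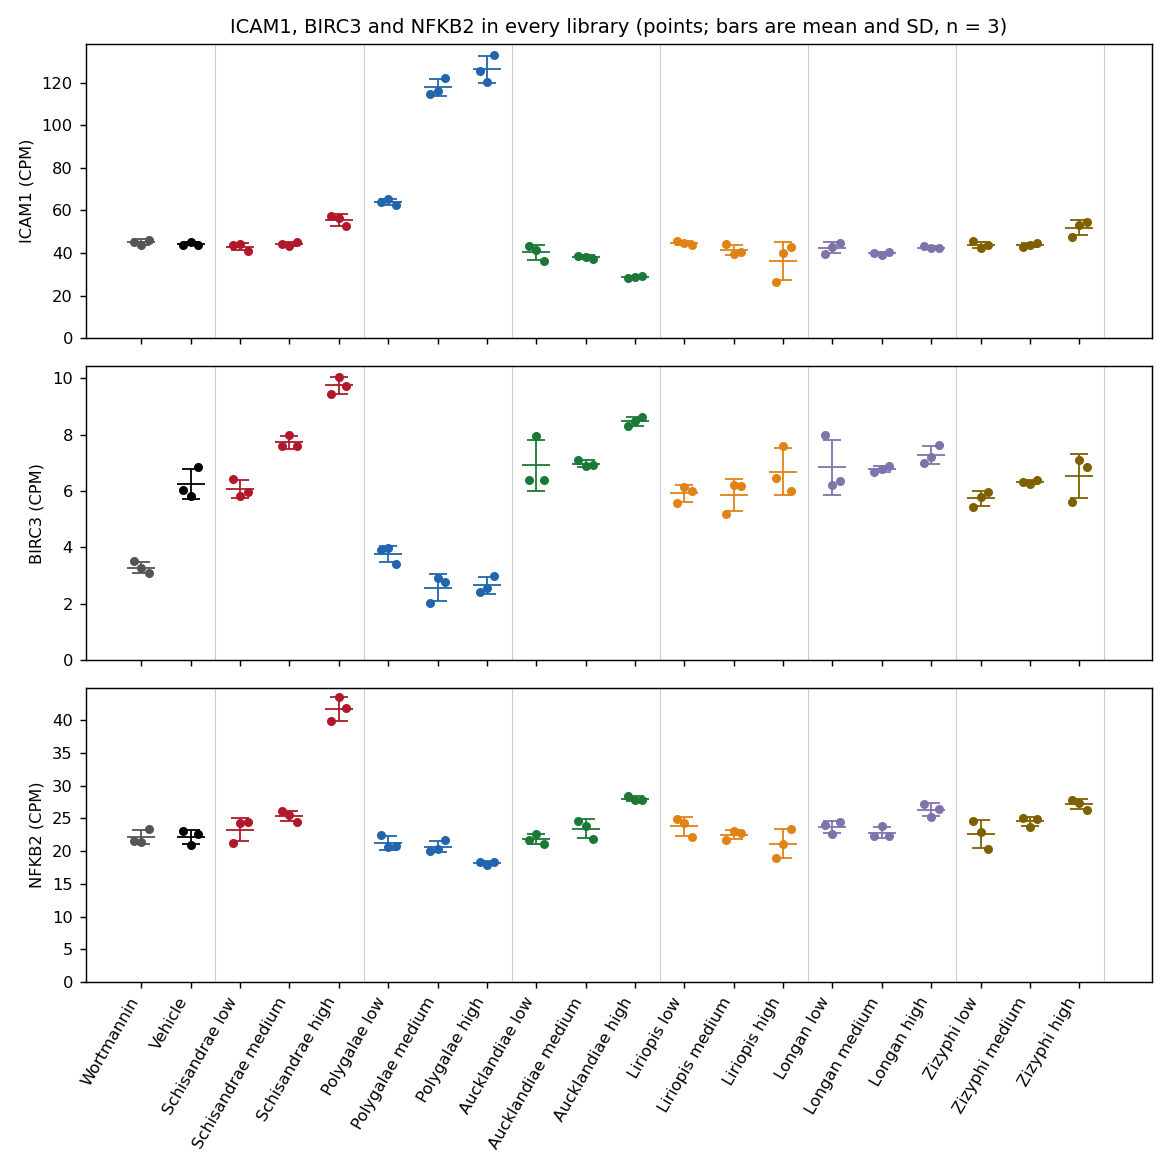
CPM of ICAM1, BIRC3 and NFKB2 in every library, with mean and SD of each group (n = 3), Wortmannin and Vehicle at the left and the doses of each herb from low to high. ICAM1 stands above all other groups at the 3 Polygalae doses, BIRC3 is lowest in the Polygalae and Wortmannin groups, and NFKB2 is highest at the high dose of Schisandrae.

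The test of the difference between herbs gave the following. It compares the high minus low difference of one herb with that of another, each taken within its own set, and the 3 tests reuse libraries, so they are not independent of each other. Polygalae doses differ from those of the other herbs, and Schisandrae and Aucklandiae were given at the same doses. For Schisandrae against Aucklandiae, 5 members differed (background 32.6%). ICAM1 differed by 0.87 (SE 0.12, adjusted p = 4.8e-08) and NFKB2 by 0.48 (SE 0.09, adjusted p = 2.7e-05). NFKB1 (-0.34), RELA (0.31) and BIRC3 (0.38) also passed, with adjusted p between 0.027 and 0.033, and 2 members were left without Schisandrae low replicate 3. None of these 3 passed without the filter (adjusted p 0.060 to 0.16), nor did RELA with unscaled totals (0.075). Without Schisandrae high replicate 2, Aucklandiae high replicate 1 or 3 or Aucklandiae low replicate 2, 3 members were left. For Schisandrae against Polygalae, 3 members differed (background 41.0%): BIRC3 by 1.20 (SE 0.15, adjusted p = 7.4e-09), NFKB2 by 1.07 (SE 0.09, adjusted p = 1.1e-13) and ICAM1 by -0.61 (SE 0.11, adjusted p = 1.6e-05). Without Liriopis high replicate 1 this count was 6, where 9052 of 18085 genes were called. NFKB1 (-0.28), RELA (0.22) and NFKBIA (-0.34) were added at adjusted p of 0.0014 to 0.022. For Polygalae against Aucklandiae, which share a library set, 4 members differed (background 22.8%). ICAM1 differed by 1.48 (SE 0.11, adjusted p = 2.7e-14) and BIRC3 by -0.82 (SE 0.15, adjusted p = 4.0e-05), NFKB2 by -0.58 and TNFAIP3 by 0.54. The TNFAIP3 difference was not called without Aucklandiae high replicate 1 or low replicate 2 (0.47 and 0.41, adjusted p 0.054 and 0.092). Without the Liriopis library RELB was added for Schisandrae against Aucklandiae (0.22, adjusted p = 0.037) and NFKBIA for Polygalae against Aucklandiae (0.32, adjusted p = 0.0046). In that fit 7722 and 5970 of 18085 genes were called in these 2 tests.

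Along the dose series, Polygalae was the herb with member calls below its high dose. Between its medium and low dose ICAM1 rose to 115, 116 and 122 CPM, against 64.1, 65.3 and 62.7 CPM (log2 0.88, SE 0.08, adjusted p = 7.2e-12). BIRC3 fell in the same comparison to 2.03, 2.92 and 2.77 CPM, against 3.90, 3.96 and 3.43 CPM (log2 -0.54, SE 0.11, adjusted p = 0.0010). These are 2 of 10 members, where 10.9% of all genes were called. In the other 5 herbs edgeR and DESeq2 called 0 members between medium and low dose, and an unadjusted p under 0.05 was reached by 1 member in Schisandrae (BIRC3, log2 0.35, adjusted p = 0.13) and by 0 in the other 4. Without Liriopis high replicate 1 that BIRC3 difference was the 1 member called in Schisandrae (adjusted p = 0.041), and NFKBIA was added in Polygalae (-0.19, adjusted p = 0.029). In that fit 306 of 18085 genes were called in Schisandrae and 3652 in Polygalae. Already at 10 µg/mL Polygalae differed from Vehicle in these genes. ICAM1 had 64.1, 65.3 and 62.7 CPM at the low dose of Polygalae, against 43.9, 45.2 and 43.9 CPM in Vehicle (log2 0.53, SE 0.08, adjusted p = 6.0e-06). BIRC3 had 3.90, 3.96 and 3.43 CPM at that dose, against 6.03, 5.83 and 6.84 CPM in Vehicle (log2 -0.73, SE 0.10, adjusted p = 2.6e-06). Those were the 2 members called there (background 6.46%). RELB was added without the Liriopis library (-0.20, adjusted p = 0.032), where 2513 of 18085 genes were called. The low dose of Aucklandiae, 20 µg/mL in the same library set, had 43.3, 41.3 and 36.3 CPM of ICAM1 and 6.39, 7.94 and 6.38 CPM of BIRC3.

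Against Vehicle, the high doses gave 7 called members with Schisandrae (background 50.9%), 5 with Polygalae (46.0%), 3 with Aucklandiae (13.2%), and 1 each with Longan (0.843%) and Zizyphi (0.607%). These comparisons share the Vehicle libraries. TNFAIP3 with Polygalae (0.29, adjusted p = 0.040) was lost without any Vehicle or Polygalae high replicate (adjusted p 0.050 to 0.12) and without the filter (0.064). The fall of NFKB2 with Polygalae was lost with unscaled totals (-0.12, adjusted p = 0.16). NFKBIA with Schisandrae (-0.26, adjusted p = 0.026) was lost without Vehicle replicate 1 or Schisandrae high replicate 2 or 3 (adjusted p 0.053 to 0.11). With Polygalae ICAM1 was 2.85-fold Vehicle at the high dose (log2 1.51, SE 0.08, adjusted p = 7.2e-21) and differed by 1.41 at the medium dose, while BIRC3 differed by -1.24 at the high dose and by -1.26 at the medium dose. At the medium dose of Polygalae NFKBIA was the third member called (-0.28, adjusted p = 0.029, background 30.1%). That call was lost with unscaled totals (adjusted p = 0.084). It was also lost without Vehicle replicate 1, 2 or 3 or Polygalae medium replicate 2 or 3 (adjusted p 0.052 to 0.085). RELA was added without Liriopis high replicate 1 (0.19, adjusted p = 0.0061), where 7307 of 18085 genes were called. With Aucklandiae ICAM1 differed by -0.63, BIRC3 by 0.44 and NFKB2 by 0.34. Without Liriopis high replicate 1 in the fit 5 members were called there, beside 4124 of 18085 genes. RELA (0.20, adjusted p = 0.0075) and RELB (0.20, adjusted p = 0.016) were the members added. TNFAIP3 with Schisandrae (0.23) had an adjusted p of 0.10 with that library and of 0.016 without it. In the fit without it, 8 members were called, beside 10606 of 18085 genes. The member called with Longan and with Zizyphi was NFKB2, by 0.25 (adjusted p = 0.037) and 0.29 (adjusted p = 0.011). The Longan call was lost without any Vehicle replicate or Longan high replicate 1 or 3, and the Zizyphi call without Vehicle replicate 2 or Zizyphi high replicate 1 or 2, and neither passed without the filter (adjusted p 0.29 and 0.19). Without Liriopis high replicate 1 the counts were 2 with Longan and 3 with Zizyphi. NFKBIA was added with Longan (0.27, adjusted p = 0.0049) and with Zizyphi (0.29, adjusted p = 0.0031), and ICAM1 with Zizyphi (0.23, adjusted p = 0.0031). Of 18085 genes, 1268 were called with Longan and 419 with Zizyphi in that fit.

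**Figure D4:**
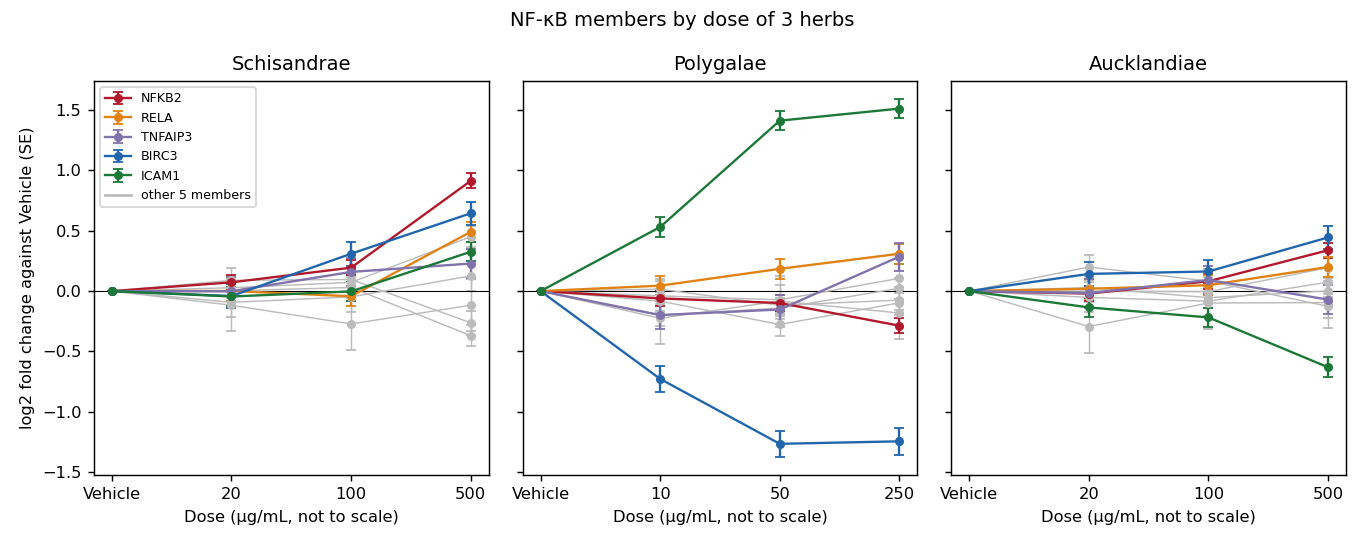
log2 fold change against Vehicle, with SE, of the members at the low, medium and high dose of Schisandrae, Polygalae and Aucklandiae; Vehicle is 0 by definition and doses are evenly spaced, not to scale. With Polygalae ICAM1 reached 1.41 and BIRC3 -1.26 at 50 µg/mL, close to their values at 250 µg/mL, whereas with Schisandrae NFKB2 stands apart at 500 µg/mL.

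Summed levels of the marker lists differed between doses of Schisandrae, Polygalae and Aucklandiae. The direction varied between these herbs for the astrocyte and glioma list and for the endothelial list. The leukocyte and microglia list was lower at the high dose in each of them. The 10 astrocyte and glioma markers, most of whose level is VIM and CD44, summed to 4075 to 4398 CPM at the high dose of Polygalae, against 7159 to 7562 CPM at the low dose. With Schisandrae they summed to 6970 to 7298 CPM at the high dose, against 7933 to 8324 CPM at the low dose, and with Aucklandiae to 8534 to 8747 CPM at the high dose, against 7953 to 8066 CPM at the low dose. The summed level of 8 leukocyte and microglia markers was 3.98 to 4.15 CPM at the high dose of Schisandrae, against 13.2 to 14.8 CPM at the low dose. With Polygalae it was 3.35 to 3.90 CPM at the high dose, against 8.98 to 10.1 CPM at the low dose, and with Aucklandiae 7.97 to 8.27 CPM at the high dose, against 12.6 to 14.2 CPM at the low dose. Of these 8 markers only PTPRC and CSF1R had a median of at least 1 CPM, and AIF1 and CD3E had medians of 0. The summed level of 6 endothelial markers was 27.1 to 31.7 CPM at the high dose of Polygalae, against 34.2 to 40.6 CPM at the low dose, nearly all of it KDR, with CDH5 at a median of 0. With Aucklandiae it was higher, at 41.7 to 45.8 CPM at the high dose against 32.8 to 38.8 CPM at the low dose, and so it was with Schisandrae, at 38.3 to 40.7 CPM against 35.9 to 38.0 CPM. Mitochondrial transcripts made up 12.4% to 13.4% of counts at the high dose of Polygalae, against 7.87% to 11.0% at the low dose. With Aucklandiae (8.77% to 8.98% at the high dose, against 8.26% to 9.87% at the low dose) and with Schisandrae (7.79% to 9.60%, against 8.50% to 11.4%) the doses overlap in this share. The part of the marker lists or of this share in the results was not tested.

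Wortmannin changed BIRC3 and no other member by edgeR. Its libraries had 3.50, 3.25 and 3.10 CPM under Wortmannin, against 6.03, 5.83 and 6.84 CPM in Vehicle (log2 -0.92, SE 0.10, adjusted p = 1.0e-08), and the groups do not overlap. ICAM1 had 45.4, 43.8 and 46.3 CPM under Wortmannin, against 43.9, 45.2 and 43.9 CPM in Vehicle (log2 0.03, 95% interval -0.13 to 0.19). The group mean of BIRC3 under Wortmannin, 3.28 ± 0.201 CPM, lay between those of Polygalae low (3.76 ± 0.295 CPM) and Polygalae high (2.65 ± 0.298 CPM). NFKBIE had 10.3, 8.87 and 8.25 CPM under Wortmannin, against 11.3, 11.8 and 11.3 CPM in Vehicle (log2 -0.32, adjusted p = 0.080). RELB (-0.25, adjusted p = 0.057), NFKBIA (-0.21, adjusted p = 0.17) and NFKB1 (-0.19, adjusted p = 0.17) did not pass either. The libraries of NFKBIE, RELB, NFKBIA and NFKB1 did not overlap with those of Vehicle. Nor did those of TNFAIP3 (-0.11, adjusted p = 0.64). The share of all genes whose libraries do not overlap is not given here for any comparison. The single call stands against 12.0% of all genes called. The number of members called was 4 without Liriopis high replicate 1 in the common fit, where 22.7% of all genes were called. NFKBIE was then at an adjusted p of 0.0010, RELB at 0.0030 and NFKBIA at 0.0098. The number of members called was 2 without Wortmannin replicate 1, where NFKBIE was added (adjusted p = 0.047).

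For Liriopis, the 2 calls between high and low dose were RELB and ICAM1, and both rested on replicate 1. RELB had 26.6, 17.8 and 17.5 CPM at the high dose, against 16.5, 16.8 and 16.3 CPM at the low dose (log2 0.31, SE 0.09, adjusted p = 0.021), and without that library the value was 0.09 (adjusted p = 0.94). ICAM1 had 26.2, 40.1 and 42.7 CPM at the high dose, against 45.7, 44.5 and 43.8 CPM at the low dose (log2 -0.30, SE 0.08, adjusted p = 0.018), and without it -0.11 (adjusted p = 0.87). Against Vehicle REL (-0.69), RELB (0.35), NFKBIA (0.38) and ICAM1 (-0.28) were called (background 34.0%). Without replicate 1 none was, with values of -0.33, 0.14, 0.10 and -0.09 in that order and adjusted p of 0.71 to 0.78. That library alone had 4.16 CPM of REL, 54.7 CPM of NFKBIA, 19.9 CPM of NFKBIE and 7.63 CPM of TNFAIP3, where the other 2 libraries had 12.6 and 13.2, 32.3 and 33.7, 10.1 and 10.4, and 15.0 and 14.7 CPM. It holds the lowest REL and TNFAIP3 and the highest RELB, NFKBIA and NFKBIE of all 60 libraries. The count between high and low dose was also 0 without any of the 3 low replicates (adjusted p 0.051 to 0.063), and it was 6 and 8 without high replicate 2 and 3. The share of all genes called in these refits is not given here, so these counts do not set the members apart from other genes.

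Other genes of the pathway were followed as 3 lists, each chosen with earlier results of these data known. Of 20 receptors, adaptors and kinases upstream of NF-κB, 2 rose and 11 fell with Schisandrae, while 8 rose and 1 fell with Polygalae and 2 rose with Aucklandiae. These are 65.0%, 45.0% and 10.0% of the list, where 49.7%, 36.1% and 10.6% of all genes tested were called, so the Aucklandiae share is at the background. Among all genes 25.0% rose and 24.8% fell with Schisandrae, and 17.9% rose and 18.3% fell with Polygalae. With Liriopis 4 fell, where 11.8% of all genes rose and 4.25% fell and replicate 1 of the high dose stands apart, and 0 were called by edgeR with Longan or Zizyphi, 0 of them at an unadjusted p under 0.05. The list's median log2 fold change was -0.19 with Schisandrae and 0.04 with Polygalae. MAP3K14, which encodes the kinase NIK, had 27.7 ± 1.32 CPM at the high dose of Schisandrae, against 52.5 ± 3.39 CPM at the low dose (log2 -0.92, adjusted p = 3.2e-11). TRAF3, an adaptor that keeps NIK low, had 40.7 ± 2.02 CPM at the high dose, against 64.2 ± 2.93 CPM at the low dose (log2 -0.66). The endotoxin receptor gene TLR4 had 8.77 ± 0.255 CPM at the high dose and 19.4 ± 1.79 CPM at the low dose (log2 -1.14), and TNFRSF1A, the gene of a TNF receptor, fell by 0.28. With Polygalae TRAF3 rose by 0.36, the lymphotoxin receptor gene LTBR by 0.30, CHUK, a kinase subunit gene of the IκB kinase complex, by 0.30 and TNFRSF1A by 0.17. With Aucklandiae IL1R1, the gene of the receptor for interleukin-1, rose by 0.60 and the kinase gene IRAK4 by 0.23. Under Wortmannin 1 rose, LTBR (0.20), and 2 fell, MAP3K14 (-0.29) and IRAK1 (-0.28), 15.0% of the list beside 12.0% of all genes (5.45% rose and 6.53% fell). With that Liriopis library left out, 4 of the 20 were called with Aucklandiae, 6 under Wortmannin and 0 with Liriopis. In that fit 19.3% of all genes were called with Aucklandiae, 22.7% under Wortmannin and 0 of 18085 with Liriopis.

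Of 12 other inhibitors and regulators, 4 rose and 3 fell with Schisandrae, 4 rose and 1 fell with Polygalae and 1 rose with Aucklandiae, while edgeR called 0 with Longan (2 at an unadjusted p under 0.05) and 0 with Zizyphi (0 unadjusted). The shares of 58.3%, 41.7% and 8.33% lie near the backgrounds of 49.7%, 36.1% and 10.6%. With the Liriopis library left out, 3 of the 12 were called with Aucklandiae (background 19.3%), 4 under Wortmannin (22.7%) and 0 with Liriopis (0 of 18085 genes). NFKBIZ, which encodes the nuclear regulator IκBζ, had 13.3 ± 1.01 CPM at the high dose of Schisandrae and 6.25 ± 0.565 CPM at the low dose (log2 1.09, adjusted p = 4.5e-09). It also rose with Polygalae (0.68, adjusted p = 7.1e-05). OTULIN, a deubiquitinase of linear chains, rose with both (0.53 and 0.49). NFKBID rose (0.53) and BCL3, a nuclear IκB-like coactivator, fell (-0.47) with Schisandrae, while NFKBIB, the gene of IκBβ, rose by 0.56 and ZC3H12A, an RNase of inflammatory transcripts, by 0.51 with Polygalae. TNIP1, an A20-binding protein gene, rose with Aucklandiae (0.22), and TNIP2 fell under Wortmannin (-0.26). The 2 genes called with Liriopis, COMMD1 and PDLIM2, had SDs of 15.5 and 16.8 CPM at the high dose, where replicate 1 stands apart, against 1.62 and 0.240 CPM at the low dose.

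Of 27 other target genes, 26 were matched and 20 passed the filter. Of those 20, 15 rose and 2 fell with Schisandrae, 10 rose and 3 fell with Polygalae, and 8 rose and 2 fell with Aucklandiae, with medians of 0.75, 0.21 and 0.30 on the log2 scale, beside 0.00, 0.01 and 0.00 over all genes tested. The shares called were 85%, 65.0% and 50.0%, beside 49.7%, 36.1% and 10.6% of all genes (for Aucklandiae 5.33% rose and 5.30% fell). Longan had 3 that rose, Zizyphi 2, Liriopis 1 that fell, and Wortmannin 3 that rose and 2 that fell. These are 15.0%, 10.0%, 5.00% and 25.0% of the list, beside 0.247%, 0.674%, 16.1% and 12.0% of all genes. Leaving out Liriopis high replicate 1 gave a count of 0 for Liriopis, where 0 of 18085 genes were called. CXCL8, the gene of the neutrophil chemokine interleukin-8, had 67.6 ± 3.44 CPM at the high dose of Schisandrae and 2.93 ± 0.550 CPM at the low dose (log2 4.53, adjusted p = 1.3e-30). It rose with Polygalae by 1.84, Aucklandiae by 1.70, Zizyphi by 1.23 and Longan by 0.70. IL1B, which encodes interleukin-1β, had 26.5 ± 0.825 CPM at the high dose of Schisandrae and 4.33 ± 0.544 CPM at the low dose (log2 2.62), and PTGS2, the gene of cyclooxygenase-2, had 353 ± 11.3 CPM and 81.9 ± 5.16 CPM at those doses (log2 2.11). BIRC2, the neighbour and paralogue of BIRC3, rose with Schisandrae by 0.79 and fell under Wortmannin (-0.23). With Polygalae the cytokine gene LIF had 119 ± 16.6 CPM at the high dose and 28.6 ± 1.73 CPM at the low dose (log2 2.05), and IL6 rose by 1.24. With Aucklandiae, where ICAM1 fell, PLAU, a plasminogen activator gene, rose by 0.73, LIF by 0.94 and IL1B by 0.81.

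The members did not follow each other closely over the 20 group means of log2 CPM. The closest pair was RELB with NFKBIE (Pearson r = 0.770), followed by BIRC3 with RELB (0.689), NFKB2 with BIRC3 (0.686) and NFKB1 with NFKBIA (0.576). ICAM1 had RELA as its nearest member (0.483), TNFAIP3 was nearest to RELA (0.506) and REL to TNFAIP3 (0.443). Among non-members with a mean of at least 5 CPM, the genes nearest to ICAM1 were WEE1 (0.978), ZC3HAV1 (0.956) and PFKFB2 (0.954). Those nearest to BIRC3 were DIRAS3 (0.960), TOR1B (0.944) and PPP1CC (0.941), and those nearest to NFKB2 were RASA1 (0.964), COASY (0.947) and MOK (0.945). The non-members were picked for the highest r over all such genes, whereas each member was set against the other members alone. Their values are therefore not comparable with those between members. With Liriopis high replicate 1 left out of its group mean, REL with TNFAIP3 was at -0.02, TNFAIP3 with RELA at 0.378 and RELB with NFKBIE at 0.637, and the closest pair was NFKB2 with RELB (0.792), followed by BIRC3 with RELB (0.724). TNFAIP3 was then nearest to NFKBIE (0.571) and REL to RELA (0.222). The values for the non-members, which lay between 0.941 and 0.978 with the library, were 0.940 to 0.978 without it. These are descriptions over 20 groups that share library sets and, within a herb, its doses.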

How the data were processed

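The authors deposited a table of expected counts from RSEM 1.3.3, made after trimming with Trim Galore 0.6.5 and alignment with STAR 2.7.3a, with FastQC 0.11.9 for quality checks and GRCh38 as the build, per the submitters' processing notes. No source used here names the annotation release or the strand setting. Libraries came from a directional mRNA kit read as 100-base pairs, per the labels' protocols. The series description says that outliers with little RNA were left out before deposit. A share of 11.02% of the deposited expected counts had decimals, and every value was rounded. Coordinates and exon lengths are from GENCODE 29 (GRCh38).

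A common quasi-likelihood model of the 60 libraries was fitted with edgeR 4.0.16 (R 4.3.3, limma 3.58.1), with a mean per group, TMM scaling, and the expression filter at a minimum count of 10. p-values were adjusted by Benjamini-Hochberg over 17792 genes within each of 34 comparisons. Standard errors were derived from the F statistic of each fold change, and CPM values use TMM-scaled totals. Log2 CPM for correlations had a prior count of 2. The common dispersion was 0.00761. Counting error limits CPM values of a few units most. The fit was tested on simulated data. All members were named in each main comparison, up to 4 called genes of each pathway list with at least 5 CPM by smallest p, and nearest genes by Pearson r. Members, lists and rules were chosen with earlier results of these data known. Alternatives were RLE scaling, no scaling, no filter, robust fitting, a replicate block, fits of the compared groups alone, DESeq2 1.42.0, and each library left out. The correlations and pathway lists without Liriopis high replicate 1 were added after seeing the data. The value of 1 marker gene is not reported here. Figures used matplotlib.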

Additional observations from a re-analysis of the deposited data

Results flagged for a closer look

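Results were flagged where the high minus low difference of a member differed between 2 herbs by a test of that difference, in the edgeR fit over all 60 libraries. Between Schisandrae and Polygalae the differences in log2 fold change were 1.07 for NFKB2, 1.20 for BIRC3 and -0.61 for ICAM1. Between Schisandrae and Aucklandiae they were -0.34 for NFKB1, 0.48 for NFKB2, 0.31 for RELA, 0.38 for BIRC3 and 0.87 for ICAM1. Between Polygalae and Aucklandiae they were -0.58 for NFKB2, 0.54 for TNFAIP3, -0.82 for BIRC3 and 1.48 for ICAM1. The first herb named is the one whose change was on top. Dixon's test for an outlying library was not run, because every group has 3 libraries.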

How the results depend on the processing

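No member result that was called in the common fit changed its direction under an alternative. Of 110 member results, 14 took the opposite sign under some alternative. None of them was called in the common fit or in a fit that gave the opposite sign. Of these, 10 had values of at most 0.09 in size (log2), among them REL with Schisandrae and NFKBIA with Polygalae, and the other 4 were RELA, NFKBIA, NFKBIE and TNFAIP3 with Liriopis high against low, without replicate 1. Without Liriopis high replicate 2 those 4 were called, with the sign of the common fit. RELA was then at -0.28, NFKBIA at 0.36, NFKBIE at 0.39 and TNFAIP3 at -0.38 (adjusted p 0.0049 to 0.023). Counts of called members moved by more than 1.5 times as follows. With the compared groups fitted alone, 0 members were called for Liriopis high against low and against Vehicle, 0 for Zizyphi high against low, 5 for Wortmannin, 3 for Longan and 2 for Zizyphi at high dose against Vehicle, and 7 for Schisandrae against Polygalae. With no filter, Zizyphi high against low had 0, Longan and Zizyphi against Vehicle 0, and Schisandrae against Aucklandiae 2. Without TMM factors Zizyphi high against low had 0 and Schisandrae against Polygalae 5. DESeq2 called 2 for Wortmannin, beside 2385 of all genes. The cause of these shifts was not tested. For the other settings of this paragraph the share of all genes called is not given. Their counts therefore do not set the members apart from other genes.

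Leaving out 1 library at a time, the high against low counts ran from 7 to 9 for Schisandrae, 5 to 6 for Polygalae, 2 to 6 for Aucklandiae, 0 to 8 for Liriopis and 0 to 2 for Zizyphi. They ran from 0 to 1 for Schisandrae medium against low, 2 to 3 for Polygalae medium against low, and 1 to 4 for Wortmannin. Against Vehicle they were 6 to 8 for Schisandrae, 4 to 5 for Polygalae, 3 to 5 for Aucklandiae, 0 to 7 for Liriopis, 0 to 2 for Longan and 0 to 3 for Zizyphi. Between herbs they were 3 to 6, 2 to 6 and 3 to 5 for Schisandrae against Polygalae, Schisandrae against Aucklandiae and Polygalae against Aucklandiae. For refits other than the one without Liriopis high replicate 1, the share of all genes called is not given. Their counts, here and above, do not set the members apart from other genes. The replicate block, fitted because groups share replicate numbers, left the Schisandrae count at 7 and changed no call, and same-numbered libraries did not deviate together in every pair, so the numbers were not taken as pairs. Robust fitting changed no call either.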
